A study of Drosophila melanogaster with 8 samples.

Results

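Trypsins are secreted serine proteases that cut dietary proteins after lysine or arginine, with a histidine, an aspartate and a serine in their active site. They are made as inactive precursors and become active when a short leading peptide is cut off. In the fly midgut they are products of enterocytes, the absorptive and enzyme-secreting cells, and genes of this family serve as markers of differentiated enterocytes. The members described here were chosen by name, as the 10 Greek-letter trypsin genes from alphaTry to lambdaTry. Of these, 8 had a row in the deposited table of 7671 genes, and betaTry and gammaTry are not analysed here. All 8 passed the authors' filter on low expression, since the table holds only genes that did.

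RNA-seq was performed on the intestines of mated Drosophila melanogaster females that were placed at 7 days of age on 24 hours of calorie restriction, on food at 0.25 of the full strength. To this food was added 0.1 M N-acetyl-D-glucosamine (GlcNAc), an intermediate of the hexosamine biosynthesis pathway, or no GlcNAc for the controls, with 4 independent samples in each group. All flies of both groups carried UAS-mCD8::GFP and hsFLP, 1 copy of tub-GAL4, and FRT82B tub-GAL80 over FRT82B, a genotype made for marking cell clones with GFP under a ubiquitous tubulin promoter, and whole intestines, not clones, were sequenced. The comparison asks how dietary GlcNAc changes gene expression in the calorie-restricted intestine. The labels give intestine as the tissue but whole larvae as the source, and glucosamine as the treatment but GLUCNAC in the titles, and the adult intestines and GlcNAc named in the study's methods are used here.

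The values are log2 CPM, where the CPM of a gene is its read count relative to the scaled size of its library. The GlcNAc libraries held 9281492 to 10326189 reads on the listed genes and the control libraries 8839877 to 9838415, and every pair of libraries within a group differed by more than sampling noise. Over all genes, 506 were lower and 671 were higher on GlcNAc at a threshold of 0.05 on the limma p-value after Benjamini-Hochberg adjustment over 7671 genes, and the median log2 fold change (log2FC) was 0.01. Each log2FC below is given with its standard error (SE). When libraries were scaled by their totals alone, 68.0% of the calls were higher, against 57.0% with the authors' scaling.

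Of the 8 trypsins, 6 were lower on GlcNAc past the threshold by limma and 0 were higher, where 6.6% of all tested genes were called lower and 8.75% higher, or 15.3% in either direction. By voom, limma's test with weights on the recovered reads, 6 were lower and 0 higher, where 511 of all genes were lower and 662 higher. At an unadjusted limma p under 0.05 the counts were 7 lower and 0 higher. No share of all genes is given at the unadjusted limit, here or for the lists below. The median log2 fold change of the 8 was -0.48. All 8 log2 fold changes were negative, or 7 with quantile normalization, under which alphaTry was at 0.18, and 47.2% of all genes were negative. The 4 GlcNAc libraries lay below the 4 control libraries for 7 of the 8, where this held for 9.24% of all genes. With any 1 library left out, 5 or 6 trypsins were called lower. The largest decreases were those of deltaTry, iotaTry and zetaTry, to between 0.463 and 0.507 of the control level. In contrast, alphaTry, the most abundant of the 8 by CPM, was at 0.884 of the control level and did not pass the threshold. In whole intestines, fewer enterocytes and less trypsin RNA per enterocyte cannot be told apart.

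**Figure D1:**
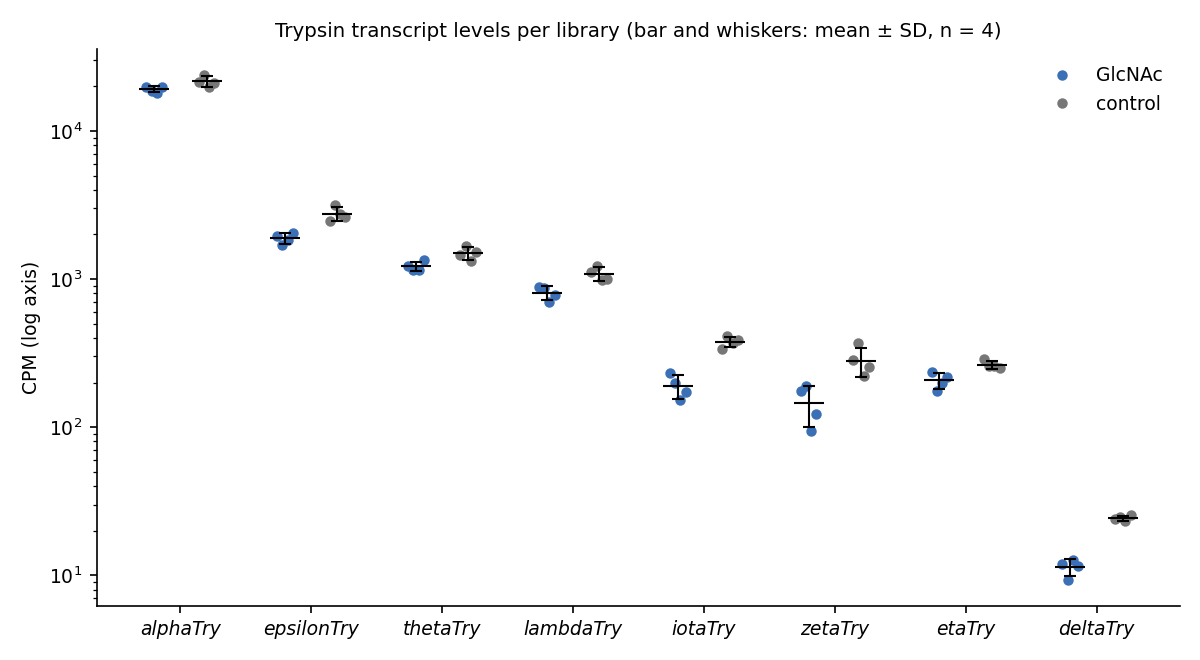
CPM of the 8 trypsin genes on a log axis, with 1 point per library, GlcNAc to the left of control for each gene, and the mean and SD over 4 libraries as a bar with whiskers. The genes are ordered by their control mean, and the GlcNAc and control points overlap only for thetaTry, while for alphaTry they come within 3.01 CPM of each other.

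The 10 genes lie close together on chromosome 2R. Together with kappaTry, the Greek-letter trypsin outside the chosen 10, and the trypsin-like genes CG30025 and CG30031, they form a cluster of 13 genes that spans 20.7 kb, from 11336840 to 11357537 of the BDGP6 assembly. Each of the 8 measured members was annotated as a single exon of 810 to 1047 bases. Several of these genes are close paralogues. The authors discarded reads with a mapping quality under 10, so the count of a gene holds only the reads placed on it and kept. How many reads from near-identical copies were lost by this was not tested, and such genes may be undercounted.

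The decrease was largest for deltaTry (FBgn0010358, 2R from 11355319 to 11356128, plus strand). It had 12.0, 9.23, 12.6 and 11.5 CPM in the GlcNAc libraries, against 23.9, 24.8, 23.2 and 25.3 CPM in the control libraries. Every GlcNAc library was thus far below every control library, and the controls lay within a narrow range. The log2FC was -1.11 (SE 0.11, 95% interval -1.34 to -0.88, limma adjusted p = 0.000119), or 2.16-fold lower. It had the lowest counted level of the 8, with 88 to 239 reads per library. It is also the member with the closest known paralogues in the cluster, gammaTry, CG30025 and CG30031. These are annotated with 810, 810 and 811 exonic bases beside its own 810 and have no row in the table. The level of deltaTry may therefore be undercounted.

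Next to deltaTry, at the same end of the cluster and on the same strand, lies iotaTry (FBgn0015001, 2R from 11356720 to 11357537). It had 231, 200, 153 and 173 CPM on GlcNAc and 336, 410.4, 372 and 389.8 CPM on control food. The groups were separated by a gap of 0.54 on the log2 scale, between 231 CPM for the highest GlcNAc library and 336 CPM for the lowest control library. The log2FC was -1.01 (SE 0.12, limma adjusted p = 0.000419), and with each library left out in turn it stayed between -1.11 and -0.91.

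The change of zetaTry (FBgn0011556, 2R from 11339186 to 11340132, minus strand) was of similar size but far less even. This gene had 176, 190.0, 93.8 and 123 CPM in the GlcNAc libraries, against 282, 369, 222 and 254 CPM in the control libraries. The groups did not overlap, but within each group the highest library was well above the lowest, with a coefficient of variation of 30.9% on GlcNAc and 22.3% on control food, the largest of the 8 genes in both groups. Its log2FC was -0.98 (SE 0.22, limma adjusted p = 0.0141), and leaving out single libraries raised the adjusted p to at most 0.0457, for GlcNAc replicate 4.

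A smaller decrease was found for epsilonTry (FBgn0010425, 2R from 11345237 to 11346066, minus strand), the trypsin with the second highest expression of the 8. Its CPM was 1943, 1704, 1838 and 2048 on GlcNAc and 2476, 3170, 2742 and 2608 on control food. The highest GlcNAc library was below the lowest control library, at a log2FC of -0.54 (SE 0.10, limma adjusted p = 0.00554), or 1.46-fold lower. The adjusted p of epsilonTry stayed at or under 0.0172 in all 18 alternatives tried.

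At the other end of the cluster, lambdaTry (FBgn0043470, 2R from 11336840 to 11337791, plus strand) had 885, 868, 703 and 785 CPM on GlcNAc, against 1122, 1229, 986 and 1008 CPM on control food. Again the libraries did not overlap, and the log2FC was -0.42 (SE 0.10, limma adjusted p = 0.0167). Without GlcNAc replicate 4 the adjusted p was 0.0519. For etaTry (FBgn0011554, 2R from 11340513 to 11341423, minus strand) the values were 237, 176, 200 and 217 CPM on GlcNAc and 289, 257, 258 and 252 CPM on control food. The highest GlcNAc library, at 237 CPM, came close to the lowest control library, at 252 CPM. Its log2FC of -0.35 (SE 0.09, limma adjusted p = 0.0258) was the smallest of the 6 called, and it was no longer past the threshold without GlcNAc replicate 3 (adjusted p = 0.0612), control replicate 1 (0.0662) or control replicate 3 (0.0518), or with limma without the trend (0.0576).

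Neither thetaTry nor alphaTry passed the threshold. For thetaTry (FBgn0011555, 2R from 11341714 to 11342760, minus strand) the libraries had 1231, 1159, 1160 and 1340.3 CPM on GlcNAc, against 1444, 1669.6, 1319 and 1519 CPM on control food. GlcNAc replicate 4 was above control replicate 3, and the other libraries did not cross. The log2FC was -0.28 (SE 0.09, 95% interval -0.48 to -0.08, limma adjusted p = 0.0646). Without control replicate 3 the adjusted p was 0.0394, and with quantile normalization it was 0.0228.

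The most abundant member, alphaTry (FBgn0003863, 2R from 11344260 to 11345119, minus strand), ranked sixth of the 7671 genes by CPM. It had 19909, 18731, 17998 and 19822 CPM on GlcNAc and 21526, 24031, 19912 and 21137 CPM on control food. The groups came within 3.01 CPM of overlapping, between GlcNAc replicate 1 and control replicate 3. The log2FC was -0.18 (SE 0.16, 95% interval -0.53 to 0.17, limma adjusted p = 0.527). The standard error from limma draws on the spread of other highly expressed genes, while the SD of alphaTry itself on the log2 scale was 0.07 on GlcNAc and 0.11 on control food. By the two-sided exact permutation test of the single gene, p was 0.0286, the smallest that 4 libraries against 4 allow. Any gene whose groups do not overlap reaches this value in that test. Of all 7671 genes, 709 were lower and 862 higher without overlap. The same unadjusted p was found by the permutation test for the other 6 trypsins without overlap, and 0.0571 for thetaTry. A decrease of alphaTry of up to 0.53 on the log2 scale lies within the limma interval (-0.53), so a change of the size seen for lambdaTry lies within it.

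Because of its level, alphaTry set the total. The summed CPM of the 8 trypsins was 24624, 23038, 22159 and 24520.1 in the GlcNAc libraries and 27499, 31160.4, 25835 and 27193 in the control libraries. All 4 GlcNAc sums were below all 4 control sums, with a mean log2 difference of -0.24, which was 0.045 with quantile normalization. Of all reads on the listed genes, trypsins took 2.40 ± 0.119% on GlcNAc and 2.74 ± 0.129% on control food (SD, n = 4). The share of alphaTry in the summed CPM was 81.1 ± 0.245% on GlcNAc and 77.6 ± 0.568% on control food (SD, n = 4). Without alphaTry, the other 7 summed to between 4160.1 and 4715 CPM on GlcNAc and between 5922 and 7129 CPM on control food.

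**Figure D2:**
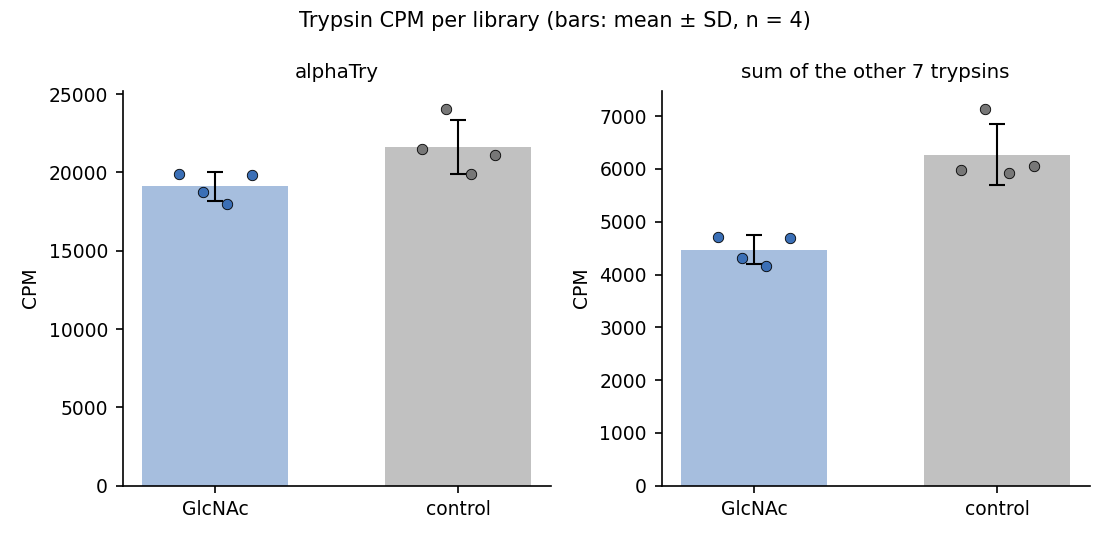
CPM per library of alphaTry (left) and of the other 7 trypsins together (right), as points, with bars for the mean and whiskers for the SD over 4 libraries, on axes that start at 0. The sum of the other 7 runs from 4160.1 to 4715 CPM on GlcNAc and from 5922 to 7129 CPM on control food, and the alphaTry points of the groups almost touch.

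Ratios between members within a library do not depend on the scaling between libraries. The CPM of iotaTry was 0.0085 to 0.0116 of that of alphaTry on GlcNAc and 0.0156 to 0.0187 on control food, without overlap. Likewise epsilonTry was at 0.091 to 0.103 of alphaTry on GlcNAc and at 0.115 to 0.138 on control food. For zetaTry the ratio to alphaTry was 0.00521 to 0.0101 on GlcNAc and 0.0112 to 0.0153 on control food. That of deltaTry was 0.000493 to 0.000699 on GlcNAc and 0.00103 to 0.0012 on control food. For lambdaTry it was 0.0391 to 0.0463 on GlcNAc and 0.0477 to 0.0521 on control food. Relative to alphaTry, these genes were thus lower in the 4 GlcNAc libraries than in the 4 controls, with no crossing. The ranges of lambdaTry came close to each other, at 0.0463 on GlcNAc and 0.0477 on control food. In contrast, the ratio of thetaTry to alphaTry, at 0.0618 to 0.0676 on GlcNAc and 0.0662 to 0.0719 on control food, overlapped between the groups, as did that of etaTry to alphaTry, at 0.00941 to 0.0119 on GlcNAc and 0.0107 to 0.0134 on control food. Between deltaTry and iotaTry the ratio was 0.0462 to 0.0823 on GlcNAc and 0.0604 to 0.0711 on control food, so that their changes were not distinguishable by it. The ratios are given as a description, without a test and without the share of all genes whose ratio to alphaTry did not overlap.

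Levels of different genes were set side by side as CPM per kb of exon. On control food the order was alphaTry (25180 ± 2010), epsilonTry (3312 ± 363), thetaTry (1421 ± 140), lambdaTry (1141 ± 118), iotaTry (461 ± 38.3), zetaTry (298 ± 66.5), etaTry (289.8 ± 18.7) and deltaTry (30.02 ± 1.15 CPM per kb, SD, n = 4). Of the neighbours in this order, thetaTry and lambdaTry overlapped between libraries, as did zetaTry and etaTry. On GlcNAc, etaTry (228 ± 28.5), iotaTry (232 ± 41.4) and zetaTry (154 ± 47.6 CPM per kb, SD, n = 4) stood close together, and zetaTry overlapped with both of the others. Among the others, thetaTry, at 1168 ± 81.6 CPM per kb, was above lambdaTry, at 851 ± 87.7, in every GlcNAc library (SD, n = 4). The member with the lowest counted level, deltaTry, was at 13.99 ± 1.81 CPM per kb on GlcNAc (SD, n = 4) and had the largest relative decrease.

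**Figure D3:**
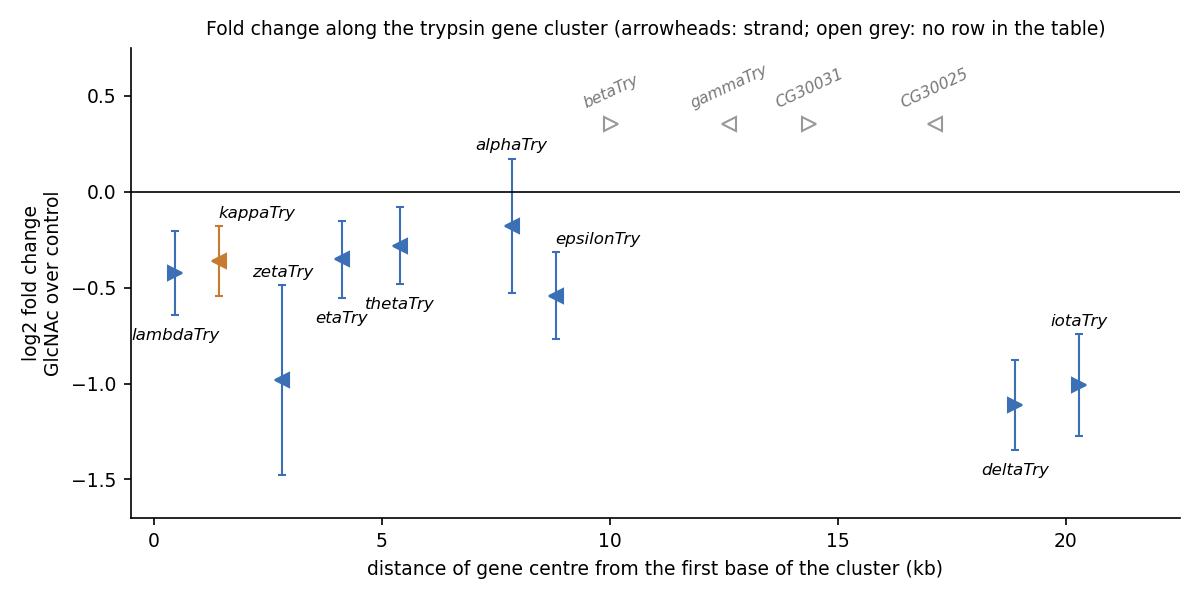
Log2 fold change (GlcNAc over control, with 95% intervals) of each gene of the trypsin cluster, by the distance of its centre from the first base of the cluster in kb, with arrowheads for the strand. Blue marks the 8 members, orange marks kappaTry, and open grey symbols placed above 0 mark 4 genes with no row in the table. The values of deltaTry (-1.11) and iotaTry (-1.01) lie side by side at one end, and zetaTry (-0.98) lies between kappaTry (-0.36) and etaTry (-0.35).

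Along the cluster, changes of different size lay next to each other. The gene kappaTry (FBgn0043471, 2R from 11337797 to 11338733), directly beside lambdaTry on the other strand, had 574, 625, 537 and 559 CPM on GlcNAc and 798, 794, 684 and 675 CPM on control food. These did not overlap, at a log2FC of -0.36 (SE 0.08, limma adjusted p = 0.0141), close to the -0.42 of lambdaTry. The next gene is zetaTry, at -0.98, followed by etaTry at -0.35, thetaTry at -0.28, alphaTry at -0.18 and epsilonTry at -0.54. Both strands held called genes. Within 20 kb of the cluster or inside it, 6 of 15 annotated genes that are not trypsins had a row in the table. All of them but CG13202 lie beyond the iotaTry end, and no gene beyond the lambdaTry end had a row. Of the 6 genes, 0 were called in either direction by limma or voom, or 1, CG13202, at an unadjusted p under 0.05. Their median log2FC was -0.05. One of these, CG13202, lies inside the cluster between deltaTry and iotaTry and overlaps the end of deltaTry on the other strand. It had 1.12 ± 0.861 CPM on GlcNAc and 2.16 ± 0.286 CPM on control food (SD, n = 4), with a log2FC of -1.25 (SE 0.48, limma adjusted p = 0.116). The authors counted reads by strand.

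**Figure D4:**
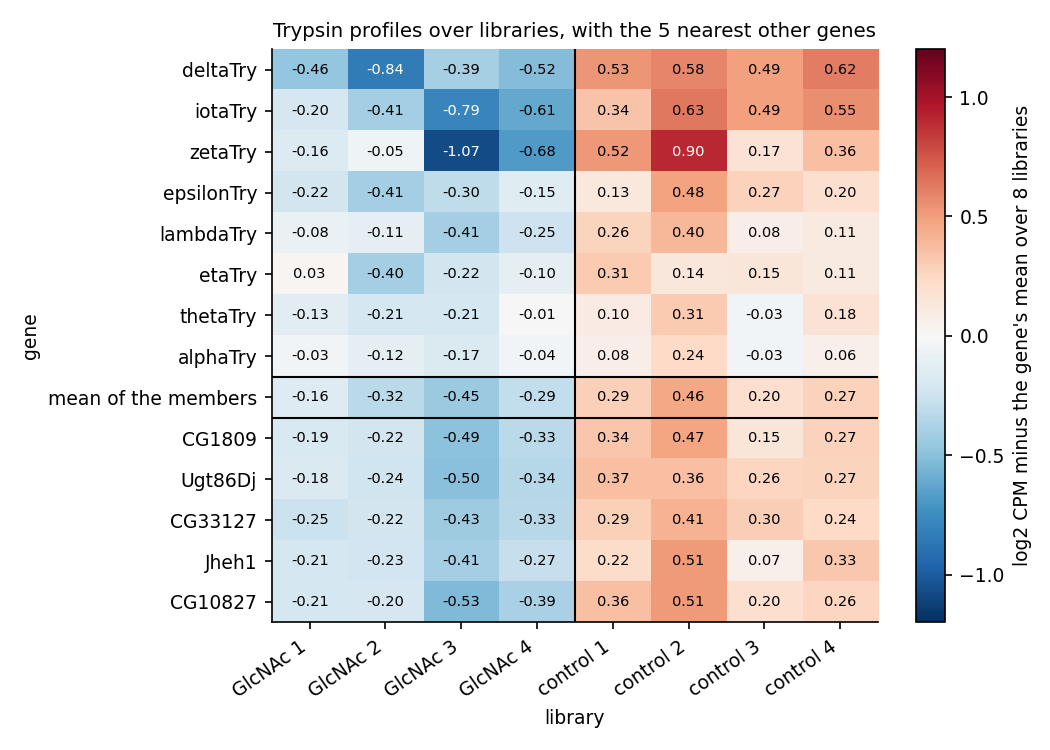
Log2 CPM of each trypsin (upper rows), of their mean, and of the 5 other genes with the nearest profiles (lower rows), minus the gene's mean over the 8 libraries, in columns for the GlcNAc and control libraries. The mean of the members lies between -0.45 and -0.16 on GlcNAc and between 0.20 and 0.46 on control food, and zetaTry in GlcNAc replicate 3 is the lowest single value, at -1.07.

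In 4 of the 8 libraries, nearly all trypsins lay on the same side of their group mean. In GlcNAc replicate 1, 8 of the 8 were above their GlcNAc mean on the log2 scale, by 0.15 on average, and in GlcNAc replicate 3 only deltaTry, 1 of the 8, was above its mean, with a mean deviation of -0.14. Among the controls, 7 of 8 were above their group mean in replicate 2, by 0.16 on average, and 1 of 8 in replicate 3, with a mean deviation of -0.11. Replicate 3 thus had the lowest mean deviation in both groups. No share of all genes is given for these counts, and whether other genes shifted alike in these libraries was not tested. The other 4 libraries were mixed, with 3 of 8 above the mean in GlcNAc replicate 2 and in control replicates 1 and 4 and 5 of 8 in GlcNAc replicate 4. The mean deviations were smaller than the median difference between the groups (-0.48), and the largest (0.16) was close in size to the difference of alphaTry (-0.18).

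The profile over the 8 libraries was also compared with that of each of 5522 other genes of at least 10 CPM, outside the protease, inhibitor and carbohydrase lists. The nearest to the mean of the 8 trypsins, by root mean square distance on the log2 scale, were CG1809 (0.0476), Ugt86Dj (0.0617), CG33127 (0.0651), Jheh1 (0.0699) and CG10827 (0.0721). Ugt86Dj encodes a UDP-glycosyltransferase, Jheh1 a juvenile hormone epoxide hydrolase, and the reference annotation names CG1809 and CG10827 as the alkaline phosphatases Alp6 and Alp5. The lists go by gene symbol, and whether CG33127 encodes a protease was not looked at. All of these nearest genes were lower on GlcNAc. This direction follows from how they were chosen, since the trypsin mean was itself lower on GlcNAc, and is not a separate result. Their log2 fold changes lay between -0.67 for CG10827 and -0.56 for Jheh1. The members themselves were at distances of 0.107 for epsilonTry to 0.329 for zetaTry from their mean.

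Other proteases of the same catalytic type did not all move in one direction. Of 13 listed trypsin-like genes outside the members, 6 were in the table. By limma 1 was called lower and 2 higher, where 6.6% of all genes were called lower and 8.75% higher. By voom 1 was lower and 1 higher, where 511 of all genes were lower and 662 higher. The gene called lower was kappaTry. Ser6 had 168, 189, 159.5 and 169.7 CPM on GlcNAc, against 126, 156, 132 and 149.9 CPM on control food, with no overlap. Its log2FC was 0.29 (SE 0.08, limma adjusted p = 0.0415), and the adjusted p ran from 0.0562 to 0.106 without any one of GlcNAc replicates 1, 2 and 4 or control replicates 1, 3 and 4. Phae1, at 3.57 ± 0.250 CPM on GlcNAc and 2.40 ± 0.338 CPM on control food (SD, n = 4), had a log2FC of 0.58 (SE 0.17, limma adjusted p = 0.0469), and it passed in the absence of control replicate 1 but not of any other single library, where the highest adjusted p was 0.112. Among those not called, yip7 was as abundant as alphaTry, at 18999 ± 1846 CPM on GlcNAc and 22276 ± 1073 CPM on control food (SD, n = 4). Its log2FC was -0.23 (limma adjusted p = 0.401). Ser8 and Phae2 were at 0.23 and 0.20 on the log2 scale, with adjusted p of 0.62 and 0.734 (limma).

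**Figure D5:**
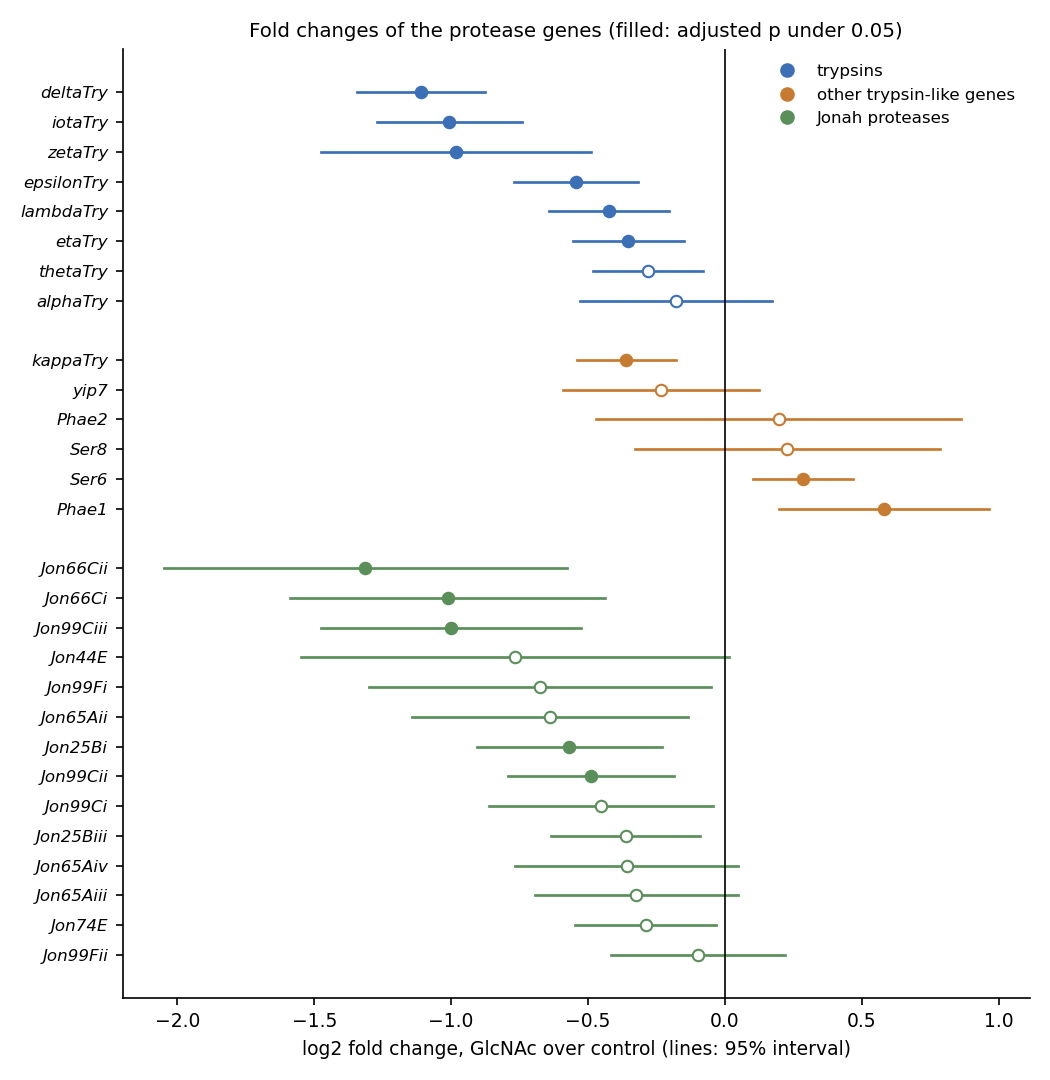
Log2 fold change (GlcNAc over control) with 95% intervals from limma for the 8 trypsins, 6 other trypsin-like genes and 14 Jonah proteases, with filled points for an adjusted p under 0.05. All trypsin and Jonah points lie left of 0 on the authors' scaling (alphaTry lies at 0.18 with quantile normalization), while Ser6 and Phae1 lie to the right of it.

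The Jonah proteases, a second family of abundant serine endopeptidases of the fly midgut, had 14 genes in the table. Of these, 5 were called lower and 0 higher by limma, and 8 lower and 0 higher by voom. By limma, 6.6% of all genes were called lower, and by voom 511 genes were. At an unadjusted p under 0.05, 10 Jonah genes were lower and 0 higher, and the median log2FC was -0.53. Their values ran from -1.31 for Jon66Cii, which was called (limma adjusted p = 0.0233) but not without GlcNAc replicate 1 (0.0511) or 3 (0.0555), to -0.10 for Jon99Fii. Jonah genes took 6.65 ± 0.253% of the reads on GlcNAc and 8.16 ± 0.429% on control food (SD, n = 4), and the ratio of the summed trypsin to the summed Jonah CPM, 0.361 ± 0.0192 on GlcNAc and 0.335 ± 0.0142 on control food (SD, n = 4), overlapped between the groups. Whether the families differ in their response was not tested.

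Serpins, which trap serine proteases and block them, and carbohydrases, which digest starch and sugars, gave other values. Of 10 serpin genes, 0 were called by limma or voom in either direction, with 3 higher and 1 lower at an unadjusted p under 0.05, and 9 had a positive log2 fold change, with a median of 0.18. The highest was nec, which encodes the serpin Necrotic, at 1.06 (limma adjusted p = 0.0629, and 0.0494 or 0.0319 without GlcNAc replicate 3 or control replicate 2), and the lowest was Spn42Da, at -0.31 (adjusted p = 0.0958). At most 338.7 CPM were summed over the serpins in any library. By limma, 8.75% of all genes were called higher. Of 12 genes for amylases and maltases, 6 were called higher and 0 lower by limma, by voom and at an unadjusted p under 0.05 alike, and the median log2FC was 0.48. They ran from -0.07 for Mal-A7 to 3.24 for the amylase-related gene Amyrel (limma adjusted p = 1.6e-05), which had 55.6, 88.2, 46.1 and 75.8 CPM on GlcNAc and 7.65, 6.88, 8.19 and 5.03 CPM on control food.

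Enterocyte markers other than proteases were all in the table, 6 of 6. Their summed CPM was 9396 to 11190 on GlcNAc and 11318 to 14111 on control food, which did not overlap. The largest part of this sum was Vha16-1, with a mean of 5591 CPM on GlcNAc and 6697 CPM on control food. Taken singly, 4 markers had a negative and 2 a positive log2FC, with a median of -0.20. Without overlap, 2 were lower, where this held for 9.24% of all genes. Of the 6, 1 was called lower by limma and 1 by voom, where limma called 6.6% of all genes lower. The limma call was the lipase gene mag, at a log2 fold change of -0.80 (limma adjusted p = 0.0087). The other 5 ran from -0.26 for Vha16-1 to 0.33 for mex1. The part of these markers in the decrease of the trypsins was not tested. The 6 progenitor markers summed to 129 to 165 CPM on GlcNAc and 127 to 149.7 CPM on control food, with 0 called by limma or voom and 0 at an unadjusted p under 0.05. Of 10 visceral muscle markers, 1 was called lower by limma and 1 by voom. Of 9 enteroendocrine markers tested, 3 were called higher by limma and 2 by voom. The list medians were -0.17 and 0.33. Over all genes, limma called 6.6% lower and 8.75% higher, and voom called 511 genes lower and 662 higher. Of the markers of other tissues, 3 of 7 for fat body, 1 of 6 for ovary and 2 of 4 for Malpighian tubules were tested, with 0 called by limma or voom in each list and 0 at an unadjusted p under 0.05.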

How the data were processed

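The authors trimmed the single-end reads with Trimmomatic, mapped them with TopHat 2.1.0 to the FlyBase genome, counted them on exons by strand with HTSeq and removed genes that did not exceed 1 CPM in 3 or more of the 4 replicates of either condition, a limit met by all 7671 genes of the table. They deposited log2 CPM values per library, with an offset of 0.5 read, and beside them columns of their own comparison (log2 fold change, t and F score, p-value and adjusted p-value), which were not used. The reads behind the values were recovered from their steps and came out whole, within 0.01 read, for 100% of 61368 values. Fold changes are on this log2 scale.

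GlcNAc and control were compared over all genes with limma 3.58.1 in R 4.3.3 (lmFit, eBayes with trend, condition only), with Benjamini-Hochberg adjustment and a threshold of 0.05. Single genes were also tested by two-sided exact permutation over 70 assignments. The test was tried on simulated data. CPM values are 2 to the power of the deposited values. Coordinates, exon lengths and strands are from the BDGP6 annotation of Ensembl, and gene symbols are those of the table. Promoter or protein sequences are not shown.

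The members and gene lists were chosen with earlier results of these data known. Genes named are all members, all listed trypsin-like genes with a row in the table, the extremes of the Jonah, serpin and carbohydrase lists and the 5 nearest profiles. The genes flanking the cluster, mag, Vha16-1 and mex1 were named after their values had been seen. Alternatives were a filter of 10 CPM, a replicate block, each library left out, voom on recovered reads, 4 other scalings, pseudocounts of 0.1 and 2 CPM, limma without the trend, an adjusted p of 0.01 and a limit of 1.5-fold.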

Additional observations from a re-analysis of the deposited data

How the results depend on the processing

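Of the 6 trypsins called lower, 3 were left at an adjusted p of 0.01 (deltaTry, iotaTry and epsilonTry) and 3 with a limit of 1.5-fold (deltaTry, iotaTry and zetaTry), and over all genes these limits gave 328 higher and 246 lower, and 274 higher and 189 lower. With quantile normalization the log2 fold change of alphaTry was 0.18, that of the summed trypsin CPM 0.045 and that of yip7 0.014, and thetaTry passed at -0.27. Without the trend, etaTry (-0.35) did not pass. With 1 library left out, the log2 fold changes ran from -0.22 to -0.13 for alphaTry, from -1.16 to -1.01 for deltaTry, from -0.59 to -0.47 for epsilonTry, from -1.13 to -0.79 for zetaTry, from -0.42 to -0.28 for etaTry, from -0.34 to -0.22 for thetaTry, from -1.11 to -0.91 for iotaTry, from -0.47 to -0.36 for lambdaTry and from -0.28 to -0.19 for the sum. Mal-A7 ran from -0.26 to 0.14, at 0.14 without GlcNAc replicate 3 and 0.050 without control replicate 4. The cause of these shifts was not tested. With the replicate number as a block, 578 genes were lower and 746 higher, with 6 trypsins lower, while Phae1 (limma adjusted p = 0.0721) did not pass and nec (0.00837) did. Phae1 also lost its call with voom, quantile normalization or median centring and Ser6 with median centring or without the trend, and nec passed with library totals. With voom, 8 Jonah genes were lower, against 5 with limma on the deposited values. The main test used the condition only. Same-numbered libraries deviated together with correlations of 0.211, 0.397 and 0.151, but -0.0588 for replicate 4. Between libraries of different number the correlations ran from -0.289 to 0.177. Whether the numbers pair the samples was thus not settled, and the block is given as an alternative. Over the 18 alternatives that kept the threshold of 0.05 without a fold limit, deltaTry was called in 18 and alphaTry in 0. The reads of deltaTry were the fewest of the 8 (88 to 239 per library).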
